A study of Mus musculus with 8 samples.

Results

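The 10 genes described here encode 4 feedback inhibitors of the SOCS family (Cish, Socs1, Socs2 and Socs3), 5 signal transducers (Stat3, Stat4, Stat5a, Stat5b and Stat6) and the kinase Jak2. They were taken by name from the 47937 Ensembl gene IDs of the count tables; no threshold on a measured value was applied, but earlier results of these data were known when they were chosen. All 10 were found, and all 10 passed the filter on low counts in every comparison. RNA was sequenced from bone marrow-derived dendritic cells (BMDCs), immune cells grown from mouse bone marrow for 8 days with the cytokine GM-CSF at 20 ng/ml. Cells were either WT or deficient for 3 G-protein coupled receptor kinases (labelled Grk 3xKO, here 3xGrk-/-), and were left unstimulated or received 20 ng/ml lipopolysaccharide (LPS), a bacterial activator of Toll-like receptor 4, for 1 day. Each of the 4 groups holds 2 libraries. BMDCs lacking these kinases were grown from mice with Grk2 fl/fl, Grk3-/- and Grk6 fl/fl alleles and either Vav-iCre, a recombinase active from early blood cell precursors onward, or CD11c-Cre, which acts in CD11c-expressing cells. The name 3xGrk-/- was used for BMDCs of the Vav-iCre line, but the Cre line of the sequenced cells is not stated in the labels or the sequencing methods. The donors were adult mice, more than 8 weeks old, WT controls lacked Cre, and GM-CSF was common to all 4 groups.

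Cytokines such as GM-CSF, IL-6 and the interferons bind receptors that lack kinase activity of their own and signal through bound Janus kinases (JAKs), which phosphorylate STAT proteins. STATs then pair, enter the nucleus and switch on target genes, among them the SOCS genes, whose products block the receptor or the kinase and so close a negative feedback loop. JAK2 bound to the common beta chain and STAT5 transmit the GM-CSF signal on which these cultures depend. STAT3 carries signals of IL-6 and IL-10, STAT4 those of IL-12, and STAT6 those of IL-4 and IL-13. Signaling by STATs depends on their phosphorylation, which RNA levels do not measure.

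The 8 libraries held 4713305 to 6933358 counted reads. Grk2 transcripts fell in 3xGrk-/- cells, from 320 and 321 CPM (counts scaled to library totals corrected by TMM factors) to 151 and 146 CPM without LPS, and from 677 and 737 to 199 and 184 CPM with LPS. For Grk6 the corresponding values were 85.4 and 83.4 against 37.0 and 37.0 CPM, and 91.8 and 101 against 34.0 and 32.6 CPM. Grk3 stood at 338 and 341 CPM in WT and 267 and 263 CPM in 3xGrk-/- cells without LPS, and at 460 and 444 against 343 and 335 CPM with LPS. Reads from the exons that remain are part of these gene totals, so they do not measure the deleted part of each gene.

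All 12 dendritic cell markers were detected in every group, with a summed level of 26540 to 26750 CPM in unstimulated WT, 13840 to 14120 CPM in unstimulated 3xGrk-/-, 18420 to 20020 CPM in LPS-stimulated WT and 15320 to 15560 CPM in LPS-stimulated 3xGrk-/- libraries. The 12 macrophage markers summed to 1092 to 1114 CPM, 2297 to 2331 CPM, 453 to 461 CPM and 5698 to 5779 CPM in the same order. Ctsl, a lysosomal protease gene, made up a large part of these sums in 3xGrk-/- cells, with means of 740 CPM without and 2909 CPM with LPS, against 45.2 and 45.9 CPM in WT cells. Most of the dendritic cell sum came from Cd74, H2-Aa, H2-Eb1 and H2-Ab1, with means of 11950, 3977, 3534 and 3526 CPM in unstimulated WT cells. In unstimulated 3xGrk-/- cells their means were 6392, 1665, 1285 and 1105 CPM. Gene by gene, 7 of the 12 macrophage markers rose and 4 fell in 3xGrk-/- cells without LPS, and all 12 rose with LPS. For the 12 dendritic cell markers, 3 rose and 7 fell without LPS, and 2 rose and 10 fell with LPS. These counts are calls of edgeR's quasi-likelihood test at an adjusted p under 0.05. Of all genes tested, 22.1% were called higher and 22.7% lower without LPS, and 24.7% and 24.0% with LPS. In the order above the 10 neutrophil markers reached 721 to 767 CPM, 531 to 546 CPM, 340 to 396 CPM and 188 to 205 CPM, and the 6 eosinophil markers 987 to 1060 CPM, 58.2 to 63.0 CPM, 961 to 1034 CPM and 39.4 to 45.6 CPM. Mpo and Il5ra were at 3 counts or fewer in LPS-stimulated 3xGrk-/- cells, and Retnlg in LPS-stimulated WT cells. The 6 stromal markers lay between 10.8 and 18.5 CPM in the first 3 groups and at 134 to 145 CPM in LPS-stimulated 3xGrk-/- cells, where Dcn alone held 127 and 113 CPM and the other 5 together 17.8 to 21.2 CPM. Mast cell and basophil markers held 71.3 to 102 CPM, and markers of T and NK cells, B cells and erythroid cells at most 16.9 CPM in any library. Several of these marker sums also changed with genotype or LPS, though not all in the direction of the genes below. Their part in the results was not tested. In such bulk samples fewer cells of a type and less RNA per cell cannot be told apart. RNA isolation is described as done in technical triplicates, and nothing states that the 2 libraries of a group came from separate cultures or animals. Each SD, SE and p-value therefore measures only the spread between these libraries, which may be technical repeats of 1 culture. The unstimulated and the LPS libraries lie in separate tables, so a difference in handling between them and LPS cannot be told apart.

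Levels of different genes were set side by side as CPM per kilobase of exon (all annotated exons merged). On this scale Jak2 stood highest in all 4 groups, at 242 ± 4.5 in unstimulated WT and 219 ± 2.0 in unstimulated 3xGrk-/- cells (SD, n = 2). Cish followed in unstimulated WT cells with 60.5 ± 0.54 CPM per kilobase, while Socs1 was lowest with 12.7 ± 3.2 and Socs3 next to it with 15.0 ± 0.93. After LPS this order changed most for Socs3. It ranked 4 of 10 in LPS-stimulated WT cells, at 93.2 ± 5.2 CPM per kilobase, within the spread of Stat3 (99.3 ± 2.9) and Socs2 (87.5 ± 3.8). In LPS-stimulated 3xGrk-/- cells Socs3 ranked 2 of 10, at 190 ± 0.27, behind Jak2 (278 ± 7.1) and above Stat3 (84.7 ± 0.61), Cish (81.3 ± 1.5) and Socs2 (79.2 ± 1.2). Stat5b was lowest there, at 32.9 ± 0.89 CPM per kilobase. Merged exons overstate the length of genes with many isoforms, so this order is approximate.

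**Figure D1:**
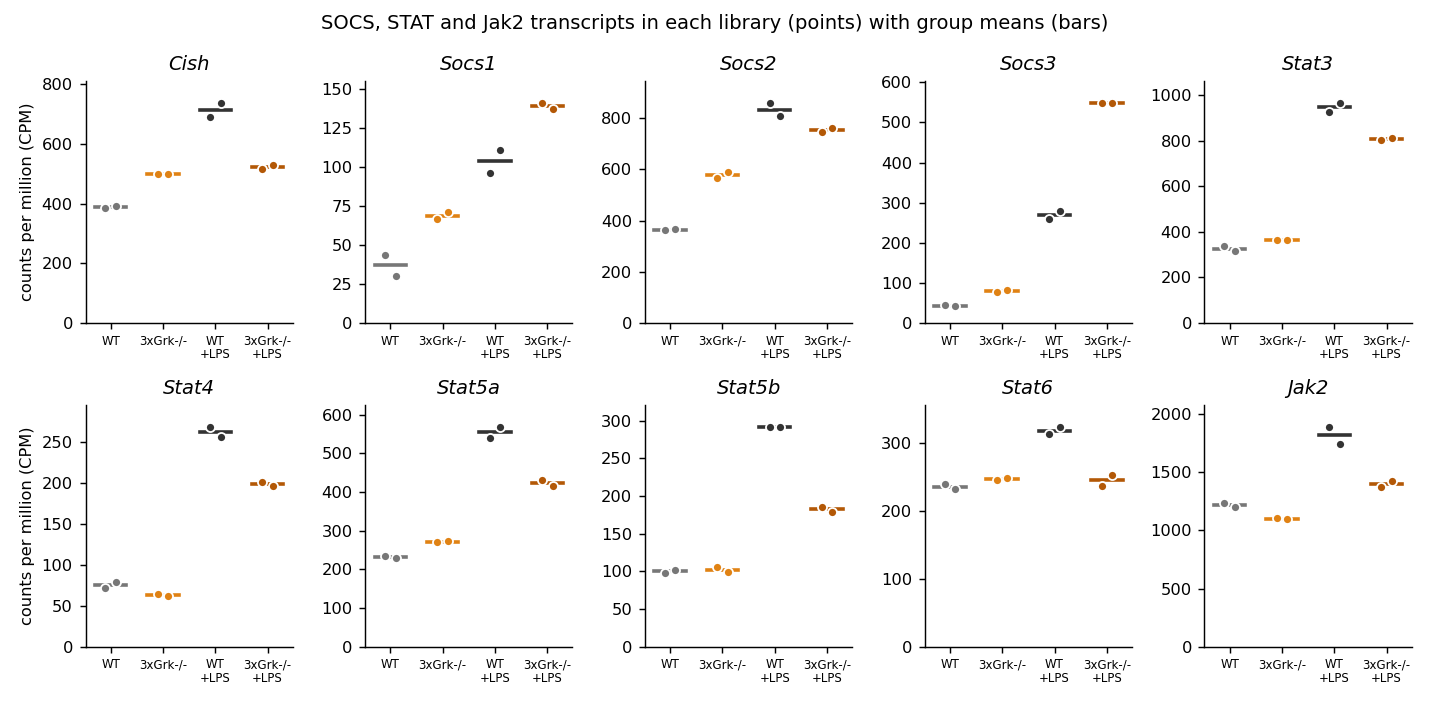
Each panel shows 1 gene, with its level in CPM (linear axis from 0) in the 4 groups; points are libraries and bars are group means. Socs1 and Socs3 are highest in LPS-stimulated 3xGrk-/- cells, and the other 8 genes are highest in LPS-stimulated WT cells.

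The first comparison asks how loss of the 3 kinases was accompanied by changes in these genes in resting BMDCs. All 4 SOCS genes were higher in unstimulated 3xGrk-/- cells than in WT cells, by 1.29-fold to 1.91-fold, whereas the STAT genes and Jak2 differed by at most 1.19-fold in either direction. Of the 10 genes, 6 rose, 2 fell and 2 did not pass the test (edgeR's quasi-likelihood test, adjusted p under 0.05), where 44.7% of all 12000 genes tested passed, 22.1% as higher and 22.7% as lower in 3xGrk-/- cells. The median log2 fold change of the 10 genes was 0.20, beside -0.002 over all genes. In 9 of 10 genes the libraries of the 2 genotypes did not overlap, as in 69.1% of all genes. With so many genes changing, the number called says little about these genes in particular, and their sizes and directions are given one by one.

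Socs1, an inhibitor of JAKs that restrains interferon signaling, had 43.6 and 30.3 CPM in the WT libraries and 66.4 and 71.2 CPM in the 3xGrk-/- libraries. Both 3xGrk-/- libraries lay above both WT libraries, although the WT pair was spread more widely, for its level, than in the other 9 genes. The fold change was 1.91 (log2 0.93 ± 0.09 SE, adjusted p = 4.0e-24). Socs3, which shuts off receptors of the IL-6 family and G-CSF, rose from 45.3 and 41.5 CPM to 76.0 and 81.1 CPM. That is a 1.82-fold difference (log2 0.86 ± 0.08, adjusted p = 8.9e-24), with no overlap between genotypes. For Socs2, an inhibitor of growth hormone and other STAT5-coupled receptors, the levels were 362 and 365 CPM in WT and 565 and 591 CPM in 3xGrk-/- cells, a 1.59-fold rise (log2 0.67 ± 0.04, adjusted p = 1.0e-60). Cish, a classical STAT5 target that damps signals through STAT5, went from 386 and 391 CPM to 500 and 499 CPM. Here the rise was 1.29-fold (log2 0.36 ± 0.04, adjusted p = 2.6e-18), and the libraries of each genotype lay close together.

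Among the STAT genes, Stat5a, which transmits GM-CSF signals, had 235 and 228 CPM in WT and 270 and 273 CPM in 3xGrk-/- cells. Its rise of 1.17-fold passed the test (log2 0.23 ± 0.05, adjusted p = 3.4e-06). Stat3 rose 1.12-fold, from 336 and 314 to 363 and 365 CPM (log2 0.17 ± 0.04, adjusted p = 0.00038), but this call was lost without WT replicate 2 (log2 0.11, adjusted p = 0.089) and with library totals as the only scaling (log2 0.08, adjusted p = 0.12). Stat4, the transducer of IL-12, went the other way, from 71.3 and 78.5 CPM to 64.3 and 62.0 CPM (log2 -0.25 ± 0.08, adjusted p = 0.0033). This call was lost in DESeq2 (adjusted p = 0.26) and when WT replicate 2 (log2 -0.17, adjusted p = 0.17) or 3xGrk-/- replicate 2 (log2 -0.23, adjusted p = 0.051) was left out. Jak2, the kinase bound to the GM-CSF receptor, was 1.11-fold lower, with 1234 and 1202 CPM in WT and 1109 and 1095 CPM in 3xGrk-/- cells (log2 -0.14 ± 0.03, adjusted p = 4.3e-05). Stat5b and Stat6 did not pass. For Stat5b the groups overlapped, with 97.6 and 102 CPM in WT and 105 and 98.5 CPM in 3xGrk-/- cells (log2 0.03 ± 0.06, adjusted p = 0.78). Stat6 had 240 and 232 CPM in WT and 246 and 249 CPM in 3xGrk-/- cells (log2 0.07 ± 0.05, adjusted p = 0.20).

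**Figure D2:**
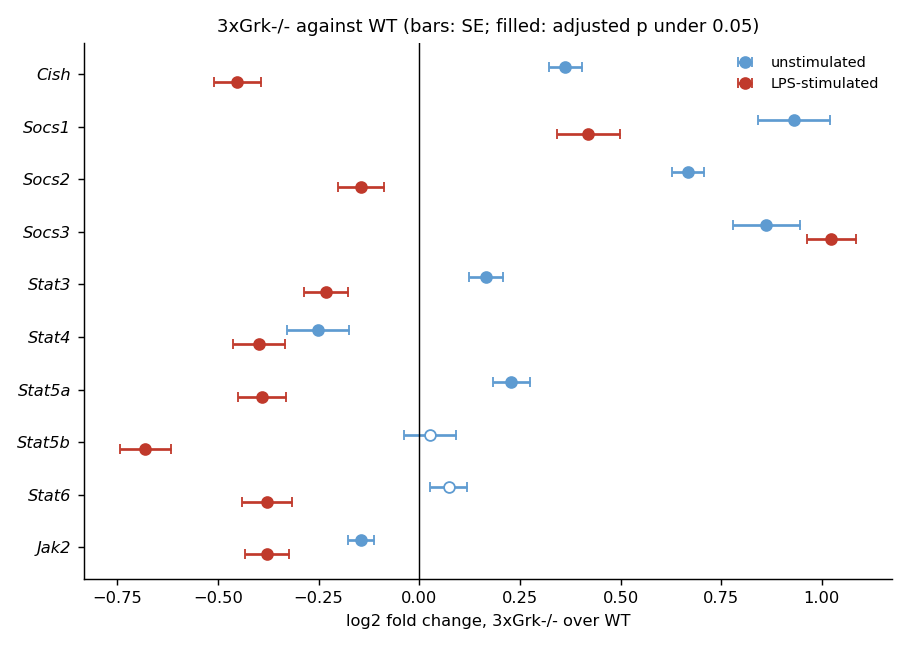
Log2 fold change of 3xGrk-/- over WT cells (horizontal axis) for each gene, unstimulated in blue and LPS-stimulated in red, with bars for the SE and filled points where the adjusted p is under 0.05. Without LPS 8 of 10 points lie right of 0, and with LPS only those of Socs1 and Socs3 do.

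With LPS, most of these genes were lower in 3xGrk-/- cells. Socs1 and Socs3 remained higher in 3xGrk-/- cells, and the other 8 genes were lower, by 1.11-fold for Socs2 to 1.60-fold for Stat5b. So 2 genes rose and 8 fell, where 48.6% of all 11830 genes tested passed, 24.7% as higher and 24.0% as lower. The median log2 fold change was -0.38 over the 10 genes and -0.01 over all genes. No gene of the 10 had overlapping genotypes, which was true of 72.6% of all genes. Cish, Socs2, Stat3 and Stat5a, 4 of the 10, were called higher without LPS and lower with it, as were 3.12% of the 11350 genes tested in both states. The calls of Stat3 without LPS and Socs2 with LPS were lost under some settings, given with each gene.

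Socs3 showed the largest difference of the 10 genes with LPS, at 259 and 280 CPM in WT and 549 and 548 CPM in 3xGrk-/- cells. Both knockout libraries held about the same level, far above either WT library, and the fold change was 2.03 (log2 1.02 ± 0.06, adjusted p = 9.0e-12). Socs1 rose from 96.4 and 111 CPM to 141 and 137 CPM, 1.34-fold (log2 0.42 ± 0.08, adjusted p = 0.00014). In contrast, Cish had 690 and 738 CPM in WT and 515 and 529 CPM in 3xGrk-/- cells, so that it fell by 0.45 on the log2 scale (SE 0.06, adjusted p = 1.4e-06). Socs2 had 859 and 809 CPM in WT and 747 and 763 CPM in 3xGrk-/- cells. This small difference (log2 -0.14 ± 0.06, adjusted p = 0.044) was lost in DESeq2 (adjusted p = 0.14), with RLE scaling (0.061), under both other filters on low counts (0.11 and 0.067), with the replicate number as a block (0.12), and without WT replicate 1 (log2 -0.09) or either 3xGrk-/- replicate (log2 -0.12 and -0.15).

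Stat5b fell most, from 292 and 292 CPM in WT to 186 and 179 CPM in 3xGrk-/- cells (log2 -0.68 ± 0.06, adjusted p = 9.2e-09). Its neighbour and close relative Stat5a stood at 539 and 569 against 432 and 415 CPM (log2 -0.39 ± 0.06, adjusted p = 1.2e-05). Reads from stretches that Stat5a and Stat5b share can be assigned to the wrong gene or dropped. Stat4 went from 268 and 255 CPM to 201 and 196 CPM (log2 -0.40 ± 0.06, adjusted p = 2.2e-05). For Stat6 the levels were 313 and 324 CPM in WT and 237 and 253 CPM in 3xGrk-/- cells (log2 -0.38 ± 0.06, adjusted p = 2.9e-05). Jak2 decreased from 1893 and 1743 CPM to 1375 and 1425 CPM (log2 -0.38 ± 0.06, adjusted p = 8.2e-06). Stat3 had 927 and 966 CPM in WT and 802 and 811 CPM in 3xGrk-/- cells (log2 -0.23 ± 0.05, adjusted p = 0.0014). Its call was lost when either 3xGrk-/- replicate was left out (adjusted p = 0.077 and 0.085). All these pairs of libraries were separated by genotype.

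These genotype calls rest on how closely the 2 libraries of a group agree. With a coefficient of variation of 0.4 set for every gene, in place of the estimated 0.031 without LPS and 0.057 with LPS, edgeR called 0 of the 10 genes in either genotype comparison, and 0 reached an unadjusted p under 0.05. Of all genes, that setting called 448 without LPS and 782 with LPS, and 1054 and 1496 reached an unadjusted p under 0.05. DESeq2 called 7 of the 10 genes without LPS and 9 with LPS, beside 20.9% and 27.9% of all genes to which it gave an adjusted p.

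The response to LPS was then compared within each genotype. In WT cells all 10 genes rose with LPS, from 1.35-fold for Stat6 to 6.24-fold for Socs3, and none had overlapping groups. Of all 12541 genes tested, 60.3% passed, 29.5% as higher and 30.8% as lower, and 78.2% had no overlap between the groups. In 3xGrk-/- cells 8 of the 10 rose, and Cish and Stat6 did not pass, where 55.4% of all genes passed, 28.0% as higher and 27.4% as lower. Libraries of 9 of the 10 did not overlap there, as in 77.6% of all genes. The median log2 response of the 10 genes was 1.39 in WT and 0.74 in 3xGrk-/- cells, against -0.015 and -0.007 over all genes.

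The strongest induction was that of Socs3 in both genotypes, with a log2 fold change of 2.64 ± 0.07 in WT (adjusted p = 1.4e-22) and 2.80 ± 0.06 in 3xGrk-/- cells (adjusted p = 1.7e-24). Stat4 followed with 1.80 ± 0.06 and 1.65 ± 0.07 on the log2 scale. For both of these genes the response did not differ between genotypes at the threshold (differences of 0.16 ± 0.10, adjusted p = 0.21, and -0.15 ± 0.10, adjusted p = 0.26). Among the others, the log2 responses in WT and 3xGrk-/- cells were 1.52 ± 0.11 and 1.02 ± 0.09 for Socs1, 1.20 ± 0.05 and 0.39 ± 0.05 for Socs2, and 0.88 ± 0.05 and 0.06 ± 0.05 for Cish. They were 1.54 ± 0.05 and 1.15 ± 0.05 for Stat3, 1.26 ± 0.05 and 0.64 ± 0.05 for Stat5a, and 1.54 ± 0.06 and 0.84 ± 0.06 for Stat5b. Jak2 responded by 0.58 ± 0.05 and 0.35 ± 0.05, and Stat6 by 0.44 ± 0.05 and -0.01 ± 0.06.

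In 3xGrk-/- cells, Cish went from 500 and 499 CPM to 515 and 529 CPM with LPS (adjusted p = 0.28), a small shift although the libraries did not overlap. Stat6 went from 246 and 249 CPM to 237 and 253 CPM (adjusted p = 0.84), with overlapping libraries. When libraries were scaled to their totals only, the median LPS response of all genes shifted by -0.215 in WT and -0.219 in 3xGrk-/- cells, and under that scaling Cish (log2 -0.15, adjusted p = 0.0092) and Stat6 (log2 -0.23, adjusted p = 0.00064) were called lower with LPS in 3xGrk-/- cells.

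The difference between the genotypes' responses was tested as an interaction, in which any shift of all LPS libraries cancels. For 8 of the 10 genes the response was smaller in 3xGrk-/- cells, and for Socs3 and Stat4 the test did not pass. Among all 12541 genes 32.5% passed, 16.5% toward a larger and 16.0% toward a smaller value. The interaction was largest for Cish (log2 -0.81 ± 0.07, adjusted p = 2.6e-10) and Socs2 (log2 -0.81 ± 0.07, adjusted p = 2.2e-10). Stat5b (log2 -0.71 ± 0.09) and Stat5a (log2 -0.62 ± 0.07) came next, then Socs1 (-0.51 ± 0.14, adjusted p = 0.0067), Stat6 (-0.45 ± 0.08), Stat3 (-0.39 ± 0.07) and Jak2 (-0.23 ± 0.06, adjusted p = 0.0053). That of Socs1 rested on a single library. Without WT unstimulated replicate 2 it was -0.22 (adjusted p = 0.27), and in DESeq2 its adjusted p was 0.060. Across the 10 genes the median interaction was -0.48, beside 0.01 over all genes.

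**Figure D3:**
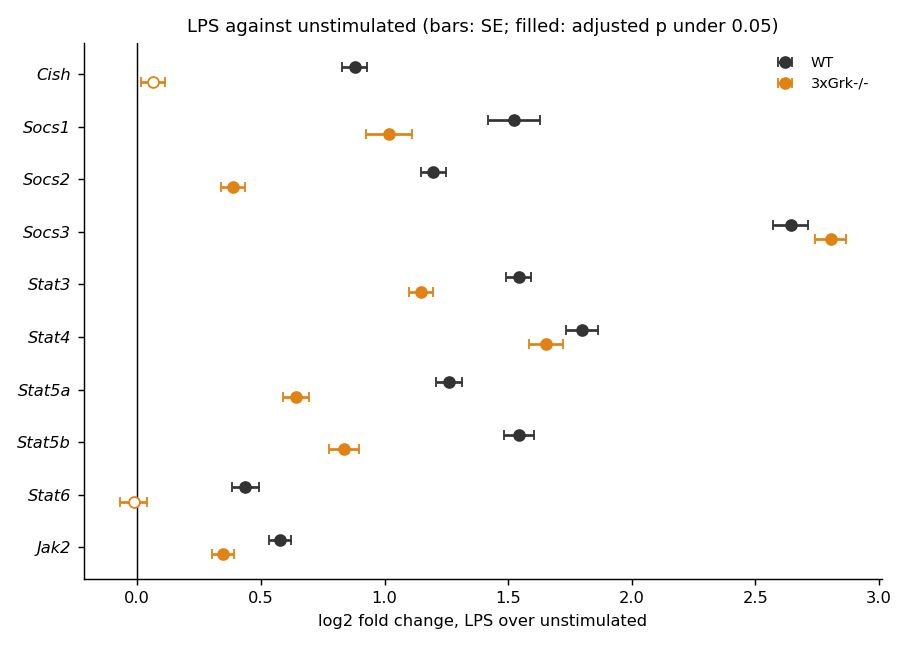
Log2 fold change of LPS-stimulated over unstimulated cells (horizontal axis) for each gene, WT in dark grey and 3xGrk-/- in orange, with bars for the SE and filled points where the adjusted p is under 0.05. In 9 of 10 genes the 3xGrk-/- point lies left of the WT point, and Socs3 is the exception.

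Ordered by group means, 8 of the 10 genes were highest in LPS-stimulated WT cells, and Socs1 and Socs3 in LPS-stimulated 3xGrk-/- cells. All neighbouring groups in this order were separated for 8 genes, and for 29.3% of all 12541 genes. The exceptions were Stat5b, whose unstimulated genotypes overlapped, and Stat6, for which LPS-stimulated 3xGrk-/- libraries overlapped those of each unstimulated genotype.

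Because the SOCS genes did not move together, the balance between them shifted. Per Cish read, the libraries held 0.117 and 0.106 Socs3 reads in unstimulated WT, 0.152 and 0.163 in unstimulated 3xGrk-/-, 0.375 and 0.380 in LPS-stimulated WT and 1.06 and 1.04 in LPS-stimulated 3xGrk-/- cells. Thus the 4 groups were fully separated in this ratio, which needs no scaling between libraries. Socs3 and Cish each separated the 4 groups alone, as 29.3% of all genes did. How many other gene pairs do so was not counted. For Stat5a per Stat5b read the values were 2.41 and 2.23, 2.56 and 2.77, 1.85 and 1.95, and 2.32 and 2.32 in the same order. The ratio was lowest in LPS-stimulated WT cells, and LPS-stimulated 3xGrk-/- and unstimulated WT libraries overlapped. No gene lengths enter these ratios, so they compare libraries and not the amounts of the 2 transcripts.

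Of the 10 genes, 4 lie on chromosome 11 (GRCm38). Stat5b (100780731 to 100850724, minus strand), Stat5a (100859351 to 100885169, plus strand) and Stat3 (100885098 to 100939540, minus strand) are neighbours, and Socs3 (117966079 to 117970047, minus strand) lies farther along. Stat5b and Stat5a are separated by 8626 bases, and the 3' ends of Stat5a and Stat3 share 72 bases of exon on opposite strands. A stranded library kit was used, but the strand setting of the counting is not given in the sources used here, so reads in that stretch may count for neither or either gene. Cish overlaps the antisense genes Gm17040 and Gm17041 (at most 13 counts in a library), Stat4 overlaps Gm28177 (at most 5 counts) and Stat6 shares 40 exon bases with Nab2 (at most 196 counts).

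STAT dimers bind sites with the core TTCNNNGAA, and STAT6 prefers sites with 1 more base in the middle. These letters, which read the same on both strands, were searched in RefSeq promoter windows of 300 bases (250 before to 50 after each annotated start, GRCm38.p6), of which 12 belong to 9 of the 10 genes. Cish held 2 matches to the shorter core and Socs3 held 1, and the windows of the other 7 genes held none, where 9.55% of all 27025 genes with a window had at least 1. The longer spacing was found in none of the 9 genes and in 8.01% of all genes. The sequences around the matches are shown because they are the only ones in these windows, with the core in capitals and written 5' to 3' on the strand of the gene.
Cish: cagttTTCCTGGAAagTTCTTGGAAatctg
Socs3: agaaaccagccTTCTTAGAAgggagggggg
The Cish stretch lies at chr9:107296654-107296683 on the plus strand, from 5 bases before to 25 bases after the RefSeq start. The GENCODE M21 annotation places it inside the first exon, in the 5' UTR, of a longer Cish transcript. For Socs3 the stretch lies at chr11:117969502-117969531 on the minus strand, from -165 to -136 relative to the RefSeq start, in no annotated exon and inside an intron of a longer Socs3 transcript. A match of letters is not evidence of binding, which was not measured here. These 2 genes differed from each other with LPS, Socs3 being higher and Cish lower in 3xGrk-/- cells.

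Most of the tested receptors that signal through JAKs were higher in 3xGrk-/- cells. Of 32 genes listed 26 were tested without LPS, and 15 rose and 4 fell (median log2 0.38). With LPS 27 were tested, and 21 rose and 3 fell (median log2 0.52). Over all genes 44.7% and 48.6% were called, in near equal numbers up and down. Il5ra, 1 of the tested receptors in either state, had a mean under 10 counts in 3xGrk-/- cells and passed the filter through its level in WT. The GM-CSF receptor genes Csf2ra and Csf2rb, and the related gene Csf2rb2, moved with the larger part of the list. Csf2ra, the ligand-specific chain, had 277 and 253 CPM in WT and 406 and 391 CPM in 3xGrk-/- cells without LPS (log2 0.59 ± 0.04), and 168 and 193 against 270 and 249 CPM with LPS (log2 0.52 ± 0.07). Csf2rb, the signaling beta chain, rose by 0.57 ± 0.03 and 0.66 ± 0.05 on the log2 scale, and its near-identical neighbour Csf2rb2 by 0.50 ± 0.03 and 0.68 ± 0.05. The 2 beta chains can share reads, so their separate values are uncertain.

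Other receptors at the upper end were Il2ra, the high-affinity chain of the IL-2 receptor (log2 0.83 ± 0.04 without LPS), Il27ra (0.72 ± 0.17 without LPS, lost in DESeq2 at an adjusted p of 0.084), Il7r (1.60 ± 0.07 with LPS) and the interferon receptor chain Ifnar2 (1.59 ± 0.09 with LPS). At the lower end stood Il12rb2, which couples IL-12 to STAT4. It had 117 and 123 CPM in WT and 69.3 and 74.8 CPM in 3xGrk-/- cells without LPS (log2 -0.74 ± 0.07), and 360 and 340 against 162 and 165 CPM with LPS (log2 -1.10 ± 0.06). Csf3r, the G-CSF receptor, was lower without LPS (log2 -0.67 ± 0.14) and higher with LPS, at 15.2 and 13.9 CPM in WT and 25.1 and 31.3 CPM in 3xGrk-/- cells (log2 0.96 ± 0.15, adjusted p = 1.9e-05). Il10ra, the ligand-binding chain for IL-10, was lower with LPS, at 517 and 528 CPM in WT and 329 and 328 CPM in 3xGrk-/- cells (log2 -0.67 ± 0.06, adjusted p = 4.4e-09).

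Ligands of these receptors were mostly too low to be tested without LPS. There, 6 of 22 passed the filter, of which 2 fell and 4 did not pass the test (median log2 -0.07). With LPS 11 were tested, and 8 were called higher and 3 lower. Csf3, Il10, Il13 and Il27, 4 of the 8, had a mean under 10 counts in WT and passed the filter through their level in 3xGrk-/- cells, so nothing is read from this count and no median is given. Il12b, the shared subunit of IL-12 and IL-23, was at 255 and 261 CPM in LPS-stimulated WT and 58.9 and 59.2 CPM in LPS-stimulated 3xGrk-/- cells (log2 -2.13 ± 0.07). Ebi3, a subunit of IL-27, had 353 and 379 CPM against 112 and 104 CPM (log2 -1.77 ± 0.07). Both were also called lower without LPS, by -0.33 ± 0.12 and -0.39 ± 0.11 on the log2 scale, calls that were lost in DESeq2 (adjusted p = 0.40 and 0.15). That of Il12b without LPS was also lost in the unfiltered fit (adjusted p = 0.055) and without WT replicate 2 or either 3xGrk-/- replicate. Csf3, which encodes G-CSF, a cytokine whose receptor SOCS3 inhibits, had 0.544 and 1.24 CPM in LPS-stimulated WT and 16.9 and 17.0 CPM in LPS-stimulated 3xGrk-/- cells. Il27, the other subunit of IL-27, had 0.907 and 1.70 against 12.0 and 12.5 CPM. For these 2 genes, at so low a level in WT, no fold and no test are given.

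Of the STATs and JAKs outside the 10 genes, Jak1 (log2 0.33 ± 0.05) and Jak3 (0.33 ± 0.08, lost in DESeq2 at an adjusted p of 0.071) rose without LPS. The other 3 of 5 did not pass (list median 0.15), where 44.7% of all genes passed. Among those called with LPS, Tyk2, a kinase of the interferon and IL-12 receptors, was lower (log2 -0.29 ± 0.06). Stat2, a transducer of type I interferon signals, was at 670 and 714 CPM in WT and 605 and 628 CPM in 3xGrk-/- cells with LPS (log2 -0.17 ± 0.06, adjusted p = 0.021). The call did not hold in DESeq2 (adjusted p = 0.087), in the unfiltered fit, with the replicate block (0.063) and without any of 3 of the 4 libraries. Without LPS Stat2 did not pass (log2 -0.10 ± 0.05, adjusted p = 0.068), although it did with library totals, with the stricter filter and without WT replicate 1 or 3xGrk-/- replicate 2, and its interaction was -0.07 ± 0.08 (adjusted p = 0.55).

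Socs4 to Socs7, the remaining SOCS genes, did not share the rise of the 4 above. Of all genes tested, 44.7% passed without LPS and 48.6% with LPS. Without LPS only Socs6 passed, at 40.9 and 44.3 CPM in WT and 28.0 and 29.4 CPM in 3xGrk-/- cells (log2 -0.58 ± 0.11, adjusted p = 2.8e-07), with a list median of -0.09. With LPS only Socs4 passed (log2 -0.30 ± 0.12, adjusted p = 0.043, list median -0.12), with 97.6 and 68.7 CPM in WT and 66.9 and 67.3 CPM in 3xGrk-/- cells. Leaving out WT replicate 1 brought it to -0.03 (adjusted p = 0.85), and it was also lost in DESeq2 (adjusted p = 0.22) and without either 3xGrk-/- replicate.

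Of 12 other restraints on JAK-STAT signaling, 2 rose and 4 fell without LPS and 1 rose and 4 fell with LPS (medians -0.07 and -0.01), a share called near the 44.7% and 48.6% of all genes. Ptpn6, which encodes the phosphatase SHP-1, was lower in both states, with 246 and 247 against 205 and 212 CPM without LPS (log2 -0.24 ± 0.05) and 217 and 216 against 119 and 133 CPM with LPS (log2 -0.78 ± 0.07). The adaptor Sh2b3, a brake on JAK2, was lower with LPS (log2 -1.09 ± 0.08, adjusted p = 9.3e-11), from 164 and 175 to 81.4 and 77.8 CPM. Usp18, an interferon-induced inhibitor of the type I interferon receptor, rose with LPS, from 249 and 258 CPM to 487 and 484 CPM (log2 0.94 ± 0.06). Without LPS the ubiquitin ligase Cbl (0.46 ± 0.04) and the phosphatase Ptpn1 (0.26 ± 0.04) were higher, and with LPS Cbl was lower (log2 -0.29 ± 0.06). The phosphatase Ptpn2 was called lower without LPS (log2 -0.22 ± 0.08, adjusted p = 0.019), but not in DESeq2 (adjusted p = 0.42), in the unfiltered fit (0.066) or without WT replicate 2 or 3xGrk-/- replicate 1. With LPS it did not pass (log2 0.15 ± 0.09, adjusted p = 0.17).

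**Figure D4:**
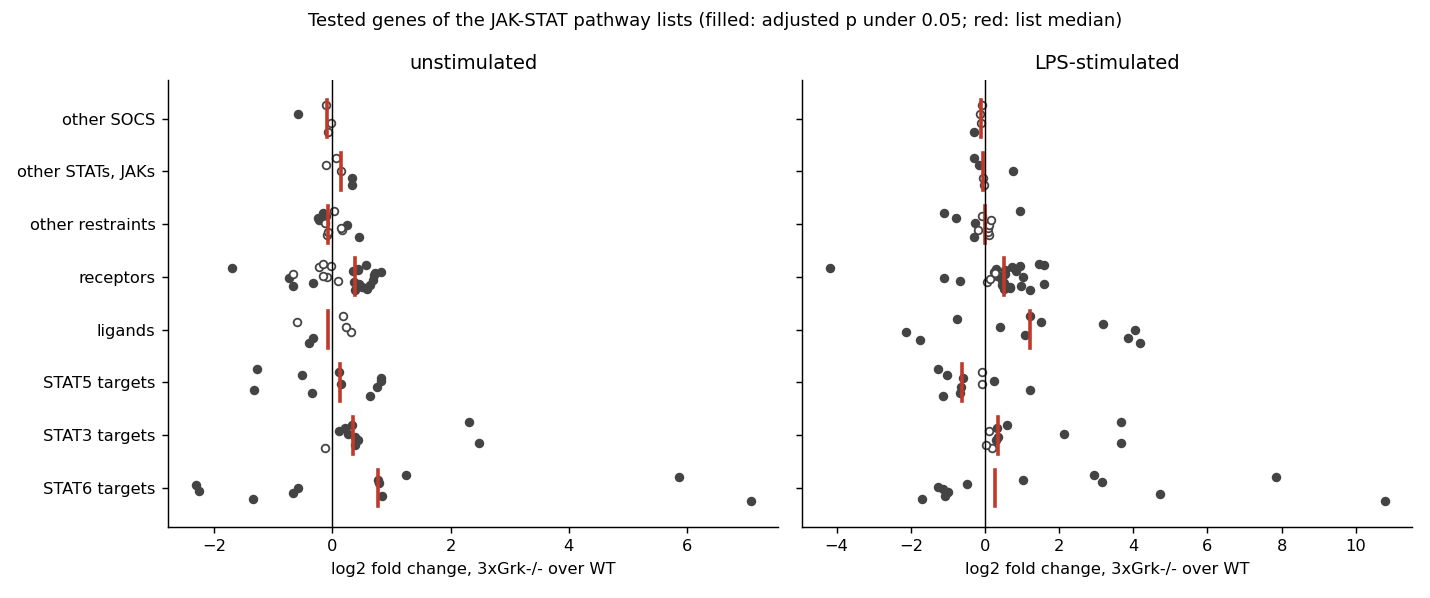
Each point is a tested gene of a JAK-STAT list, placed by its log2 fold change of 3xGrk-/- over WT cells (horizontal axis) without LPS on the left and with LPS on the right; points are filled where the adjusted p is under 0.05 and red lines mark list medians. Receptors lie mostly right of 0 in both states, and STAT5 targets shift from a median of 0.13 to one of -0.61.

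Target genes were described for the 3 STATs with well-known targets. The target lists do not separate genes that a STAT activates from genes it represses, so their counts and medians do not measure STAT activity. All 10 STAT5 targets were called without LPS, 6 higher and 4 lower (median log2 0.13), and with LPS 2 were higher and 6 lower (median -0.61). Over all genes 22.1% were called higher and 22.7% lower without LPS, and 24.7% and 24.0% with LPS. Bcl2l1, the survival gene for BCL-XL, had 56.4 and 52.8 CPM in WT and 81.7 and 88.7 CPM in 3xGrk-/- cells without LPS (log2 0.64 ± 0.08), but 185 and 196 against 85.4 and 87.1 CPM with LPS (log2 -1.15 ± 0.07). Its genotype differences in the 2 states thus had opposite signs, as those of Cish and Stat5a did. Pim2, a survival kinase, was lower in both states (log2 -1.27 ± 0.25 and -1.26 ± 0.20). Irf8, a regulator of dendritic cell development, was higher without LPS (log2 0.82 ± 0.04) and lower with it (log2 -0.59 ± 0.05). The cell cycle gene Ccnd1 was lower without LPS (log2 -1.32 ± 0.07) and higher with it (log2 1.22 ± 0.21). Il2ra was higher with LPS by 0.23 ± 0.05 on the log2 scale (adjusted p = 0.0014), a call lost without 3xGrk-/- replicate 2 (adjusted p = 0.070).

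STAT3 targets were higher in 3xGrk-/- cells in 9 of 10 cases without LPS (median log2 0.36) and in 7 of 10 with LPS (median 0.34), where 22.1% and 24.7% of all genes were called higher, and the remaining 1 and 3 genes did not pass. Without LPS, Timp1 had a mean under 10 counts in WT and passed the filter through its level in 3xGrk-/- cells. Il1rn, which encodes the IL-1 receptor antagonist, rose from 84.6 and 90.4 to 486 and 489 CPM without LPS (log2 2.47 ± 0.05) and from 145 and 138 to 1778 and 1837 CPM with LPS (log2 3.68 ± 0.06). Il4ra, a chain of the IL-4 receptor and also in the receptor list, rose by 0.44 ± 0.04 without LPS. Timp1, a metalloproteinase inhibitor, had 18.3 and 17.5 CPM in WT and 229 and 223 CPM in 3xGrk-/- cells with LPS (log2 3.66 ± 0.09).

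STAT6 targets were split. Of 13 listed, 11 were tested without LPS, with 6 called higher and 5 lower, and 12 with LPS, with 6 higher and 6 lower, where 44.7% and 48.6% of all genes were called. Of the tested genes 2 without LPS and 4 with LPS, all called higher, had a mean under 10 counts in WT and passed the filter through their level in 3xGrk-/- cells, so nothing is read from these counts and no median is given. Retnla, a marker of alternatively activated macrophages, had 0.382 and 1.40 against 52.4 and 63.7 CPM without LPS, and 0.544 and 0.464 against 120 and 123 CPM with LPS. WT libraries held between 2 and 10 reads of Retnla, so no fold is given. The lectin genes Mgl2 (log2 -2.31 ± 0.04) and Clec10a (log2 -2.26 ± 0.15) were lower without LPS. The chemokine gene Ccl17 (log2 -1.69 ± 0.06) and the dendritic cell regulator Irf4 (log2 -1.26 ± 0.06) were lower with LPS. Mrc1 and Irf4 of this list are also among the macrophage and the dendritic cell markers above.

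The genes whose levels followed each of the 10 most closely over the 8 libraries were ranked by Pearson's r of log2 CPM among 9100 genes. Fabp5, a lipid-binding protein gene, followed Stat5a (r = 0.999), and Cd40, a costimulatory receptor gene, followed Stat3 (r = 0.999). Cish was closest to the chemokine gene Ccl22 (r = 0.996), Socs3 to Ramp3, Junb and Fabp4 (r = 0.998, 0.998 and 0.997), Socs2 to Prr13 (r = 0.998) and Stat5b to Epb41 (r = 0.998). Stat4 was closest to Sp140 (r = 0.997), Socs1 to Phf1 (r = 0.993), Jak2 to Serpinb9 (r = 0.992) and Stat6 to Hbs1l (r = 0.986). The 8 points share 4 conditions, so high values of r describe a like order of group levels and are given without a test.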

How the data were processed

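RNA from 8 BMDC libraries (2 per group) was prepared by the authors with a stranded mRNA kit, mapped to GRCm38 with STAR 2.7.3a within snakePipes 2.1.0 and counted per gene with featureCounts 2.0.0, per the study's methods. The deposited values are raw counts for 47937 Ensembl IDs, in 1 table per stimulation. The annotation release and the strand setting are not given in the sources used here. Names were found for 47310 IDs, and IDs without a name held 0.0468% of counts. No table held the authors' own fold changes.

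Counts were tested with edgeR 4.0.16 (TMM scaling, filterByExpr, quasi-likelihood test, Benjamini-Hochberg adjustment over all genes tested, threshold 0.05) in R 4.3.3. Genotypes were compared within each stimulation (4 libraries), and LPS responses and the interaction were taken from 1 fit of all 8 libraries. The SE was obtained from the unshrunken log2 fold change and the F value of its test. CPM values use 1 TMM scale over the 8 libraries, and log2 CPM for likeness used a prior count of 1. DESeq2 1.42.0, the tool the authors used in an earlier version, other scalings and filters, a fixed coefficient of variation, a replicate block, removal of Gm42418 (a gene overlapping ribosomal RNA), other choices of the libraries fitted and each library left out were the alternatives. With a library left out, the lone library of its group was assumed to vary like the others. Depth, 4713305 to 6933358 counts per library, sets the precision, and genes at 3 counts or fewer were treated as at the floor.

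The 10 genes and the lists were chosen with earlier results of these data known. Named in the text are the 10 genes, the GRK genes, Csf2ra, Csf2rb, Csf2rb2 and Stat2. Also named, for each list and genotype comparison, are the 2 genes highest and the 2 lowest in log2 fold change. These were taken among genes called with a mean of at least 20 counts. The genes most alike to each member are named as well. Results for 2 genes of these lists are not reported here. Ligand, receptor, marker and overlapping gene names outside this rule come from their lists or the annotation. Same-numbered WT and 3xGrk-/- replicates did not deviate together (correlation 0.022 without LPS and -0.037 with LPS over 9100 genes). Replicates differed by more than sampling noise (chi-square per gene 1.59 to 9.02); this does not tell separate cultures from technical repeats, and each library was counted as 1 sample.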

Additional observations from a re-analysis of the deposited data

Results flagged for a closer look

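For 8 of the 10 genes the difference between 3xGrk-/- and WT cells itself differed between the 2 states of stimulation, by the interaction test, which 32.5% of all genes passed, 16.0% in this direction. On the log2 scale the difference of differences was -0.51 for Socs1, -0.81 for Socs2, -0.81 for Cish, -0.39 for Stat3, -0.62 for Stat5a, -0.71 for Stat5b, -0.45 for Stat6 and -0.23 for Jak2. The value of Socs1 was lost without a single WT library, as given above. Groups of 2 libraries are too small for a check of outlying samples.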

How the results depend on the processing

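Over 680 repeats of the members' tests, 615 kept direction and side of the threshold, 58 lost the call, 1 gained it and 6 changed sign. Of the 58, 41 came from fixing the coefficient of variation at 0.4, which left 448, 782, 1110, 850 and 72 genes called (genotype without and with LPS, LPS in WT and in 3xGrk-/- cells, interaction) and 0, 0, 2, 1 and 0 of the 10 genes. At an unadjusted p under 0.05 these were 0, 0, 7, 3 and 0 of the 10, beside 1054, 1496, 2136, 1830 and 561 of all genes. Socs3 and Stat4 kept the adjusted call for LPS in WT cells, and Socs3 in 3xGrk-/- cells. DESeq2 called 2828 genes without LPS, 3665 with LPS and 2457 in the interaction, against 5369, 5754 and 4070 in edgeR. The causes were not tested. Sign changes were confined, in the members, to values near 0 or to scaling by library totals: Stat5b without LPS (-0.059 with library totals, and -0.022 to 0.074 with a library left out, the sign changing without WT replicate 1, at -0.003, or 3xGrk-/- replicate 1), Stat6 without LPS (-0.012 with library totals), Stat6 with LPS in 3xGrk-/- cells (-0.058 to 0.031 with a library left out, positive without LPS-stimulated 3xGrk-/- replicate 1) and Cish there (-0.15 with library totals). Scaling by library totals moved the median of all genes by -0.084 and -0.087 in the genotype comparisons and by -0.215 and -0.219 in the LPS responses, and the share of calls that were higher from 49.3% to 35.8% without LPS, from 50.7% to 40.9% with LPS, from 49.0% to 31.1% for LPS in WT and from 50.5% to 30.2% for LPS in 3xGrk-/- cells.

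Leaving out 1 library gave 4253 to 4788 genes called without LPS, 4460 to 5712 with LPS, 6417 to 7199 for LPS in WT, 5844 to 6003 for LPS in 3xGrk-/- cells and 3328 to 4199 for the interaction, and 6 to 8, 8 to 10, 10, 8 and 7 to 8 of the 10 genes. Replicate numbers named samples and did not pair them. With the replicate block 5292, 5654, 7438, 6793 and 3884 genes were called, and in the members it changed the call of Socs2 with LPS (adjusted p = 0.12) and no other. Genes at a few reads in WT, such as Retnla and Csf3, are limited by depth.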
